A study of Mus musculus with 4 samples.

Results

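The genes described here make, bind and cut a hyaluronan-rich pericellular matrix. They are the hyaluronan synthase genes Has1 and Has2, the genes of the hyaluronan binders versican (Vcan), CD44 (Cd44) and TSG-6 (Tnfaip6), and the protease genes Adamts1, Adamts2, Adamts4, Adamts5 and Adamts9. The 10 genes were listed by name, and every probe set that the platform annotation gives to exactly 1 of them was taken. This gave 26 probe sets for 9 genes, out of 34945 probe sets and 18193 genes named in the whole table, and the probe set brightest on average over the 4 arrays stands for its gene. Adamts2, the procollagen protease gene, had no probe set named here and was not analysed. Has1 lay below the filter on signal, so 8 of the 10 genes were tested among 11057 genes.

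Total RNA of undifferentiated 3T3-MEFs, mouse embryonic fibroblasts kept as a permanent line, was measured on 4 Affymetrix arrays, with the cells harvested at confluence and no adipogenic stimulus given. The labels name 2 arrays of wild-type cells and 2 of SMRTmRID cells. SMRT is a corepressor protein that unliganded nuclear receptors recruit, and SMRTmRID cells come from mice in which its receptor interaction domains (RID) are mutated. The design asks how the mutant cells differ from wild-type cells before differentiation. The labels call both arrays of a genotype technical replicates and name no separate cultures or embryos. All p-values therefore measure the spread between such arrays, and a difference of genotype cannot be told apart from a difference between the cell lines that carry it. The number of arrays limits the precision.

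Hyaluronan is a long sugar polymer that HAS enzymes spin out through the plasma membrane from activated sugars of the cytosol. Versican is a large chondroitin sulfate proteoglycan whose head domain grips hyaluronan, CD44 anchors the polymer to the cell surface, and TSG-6 moves protein chains of the inter-alpha-inhibitor onto it. ADAMTS proteases are secreted zinc enzymes. Several of them, ADAMTS1, ADAMTS4, ADAMTS5 and ADAMTS9 among these, cut versican and its relative aggrecan, whereas ADAMTS2 trims the amino end of fibrillar procollagens. Fibroblasts make much of this matrix when they proliferate, migrate or answer inflammatory signals.

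Of the 10 members 7 matched an entry of the RefSeq promoter table, and the promoter stretches of 5 are printed so that genes that were higher, lower or without a call can be set side by side in sequence. Each is the 250 bases before the RefSeq start of the gene, 5′ to 3′ in the direction of transcription, on build GRCm38.p6. Adamts9 lies at chr6:92943535-92943784 on the minus strand, Vcan at chr13:89742513-89742762 on the minus strand, Adamts1 at chr16:85803114-85803363 on the minus strand, Tnfaip6 at chr2:52037863-52038112 on the plus strand and Cd44 at chr2:102901666-102901915 on the minus strand. Capitals mark matches, on either strand, to any of 4 motifs.
Adamts9: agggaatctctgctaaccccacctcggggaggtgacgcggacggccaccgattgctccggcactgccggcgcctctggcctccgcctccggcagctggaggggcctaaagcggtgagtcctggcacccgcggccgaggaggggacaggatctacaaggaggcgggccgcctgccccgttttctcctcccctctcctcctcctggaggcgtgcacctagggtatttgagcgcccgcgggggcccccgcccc
Vcan: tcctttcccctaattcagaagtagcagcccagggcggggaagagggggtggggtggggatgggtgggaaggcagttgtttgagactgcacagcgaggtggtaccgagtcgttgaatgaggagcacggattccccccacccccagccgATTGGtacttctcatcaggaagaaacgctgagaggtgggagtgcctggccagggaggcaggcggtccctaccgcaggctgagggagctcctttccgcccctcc
Adamts1: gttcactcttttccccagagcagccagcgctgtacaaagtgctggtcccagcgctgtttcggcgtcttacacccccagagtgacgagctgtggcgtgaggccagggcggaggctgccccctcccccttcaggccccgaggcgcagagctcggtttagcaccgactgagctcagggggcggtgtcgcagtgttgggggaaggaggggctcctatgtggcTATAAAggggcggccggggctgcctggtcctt
Tnfaip6: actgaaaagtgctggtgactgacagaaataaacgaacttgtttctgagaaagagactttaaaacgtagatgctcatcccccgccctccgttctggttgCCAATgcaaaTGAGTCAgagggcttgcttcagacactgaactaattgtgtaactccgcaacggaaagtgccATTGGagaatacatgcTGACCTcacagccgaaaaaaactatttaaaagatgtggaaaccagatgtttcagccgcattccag
Cd44: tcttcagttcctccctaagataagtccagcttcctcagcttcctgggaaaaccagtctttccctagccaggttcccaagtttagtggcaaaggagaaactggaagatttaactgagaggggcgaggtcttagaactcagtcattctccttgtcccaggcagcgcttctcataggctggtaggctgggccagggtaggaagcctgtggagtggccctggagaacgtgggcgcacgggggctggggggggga

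The motifs searched were the nuclear receptor half-site AGGTCA, the AP-1 motif TGANTCA, the CCAAT box CCAAT and the TATA box TATAAA. Among all 32851 RefSeq promoter stretches of the same length, 14.0% held the half-site, 6.75% the AP-1 motif, 33.8% the CCAAT box and 12.4% the TATA box. The Adamts1 stretch held 1 TATA box, with 26 bases between it and the start. The Tnfaip6 stretch held 1 AP-1 motif, 1 half-site and 2 CCAAT boxes, which lay 135, 59, 147 and 76 bases before the start and did not overlap. The Vcan stretch held 1 CCAAT box, 98 bases before the start. TGACCT and ATTGG in these stretches are the half-site and the CCAAT box read on the other strand. The Adamts9 and Cd44 stretches held none of the 4. In base composition the Adamts9 stretch was 71.2% G or C with 22 CpG pairs, Adamts1 65.6% with 15, Vcan 62.4% with 10, Cd44 56.4% with 5 and Tnfaip6 44.4% with 8, against medians of 52.4% and 6 over all stretches.

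Most of these genes were higher in SMRTmRID cells. Of the 8 tested, 6 were higher, namely Has2, Vcan, Adamts1, Adamts4, Adamts5 and Adamts9, each by a log2 difference above 1. Cd44 was lower, and Tnfaip6 did not pass the test. Adamts9 was tested only through its level in SMRTmRID, so its direction was fixed by the filter. Of the 7 members whose wild-type mean alone passed the filter, 5 were higher. A gene was called at an adjusted p under 0.05 (limma over all tested genes, Benjamini-Hochberg). By that rule 65.2% of all tested genes were called, 30.3% higher and 35.0% lower in SMRTmRID, so a call by itself is common in this comparison. Of the 10586 genes whose wild-type mean passed the filter, 28.3% were higher. Calls of a log2 difference of 1 or more in the higher direction made up 9.69% of the tested genes, and calls of -1 or less 6.79%. The median log2 difference was 1.87 over the 8 members and -0.05 over all tested genes, and with the wild-type mean above the filter it was 1.83 over 7 members and -0.08 over all. With each array centred on its median, the median of all tested genes went to -0.21 and the share of calls in the higher direction from 46.4% to 33.9%, while 6 members were still higher and 1 lower. Every log2 difference is SMRTmRID minus wild-type of log2(signal + 16), so changes that start from a dim signal are understated. Signals given with ± carry the SD over 2 arrays. In bulk RNA, more cells that express a gene and more RNA per cell cannot be told apart.

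**Figure D1:**
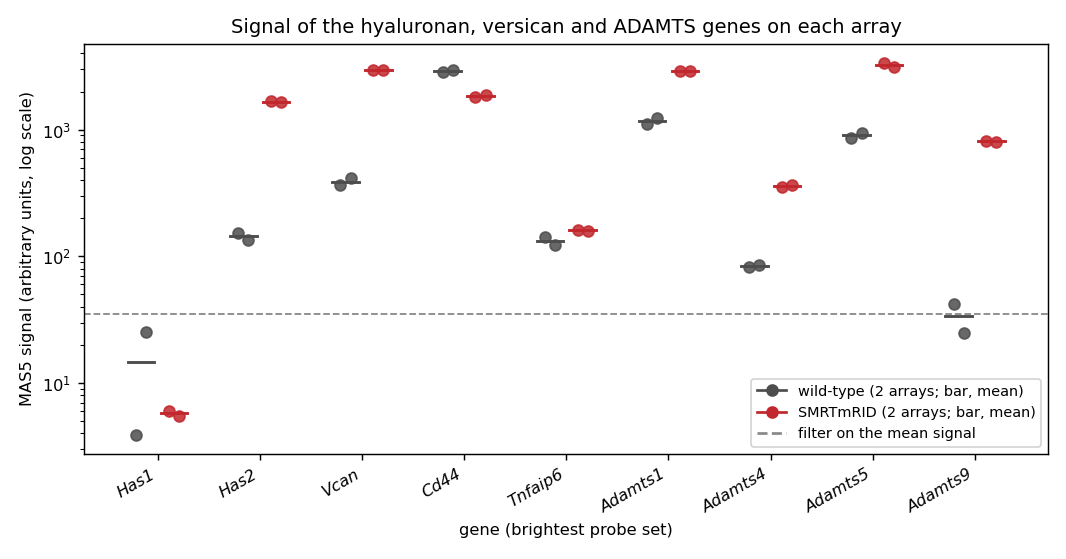
MAS5 signal (log axis) of the brightest probe set of each of the 9 members with a probe set, for each wild-type array (grey) and SMRTmRID array (red), with bars at the means and a dashed line at the filter of 35.1. The red points stand above the grey for Has2, Vcan and the 4 ADAMTS genes and below them for Cd44, while the Has1 points overlap and lie under the line.

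Has2, the gene of the main hyaluronan synthase of fibroblasts, was among the members with the greatest difference. Its signals were 153 and 135 on the wild-type arrays and 1674 and 1638 on the SMRTmRID arrays. Both mutant arrays were far above both wild-type arrays, with means of 144 ± 12.9 and 1656 ± 25.4 (SD, n = 2 each), an 11.5-fold ratio. The log2 difference was 3.38 with an SE of 0.08 (limma, adjusted p = 1.44e-09), and 67 tested genes stood higher in the order of differences. A second Has2 probe set showed the same picture, with 66.0 and 79.4 on the wild-type arrays and 1226 and 1268 on the SMRTmRID arrays and a log2 difference of 3.84 ± 0.10 (SE). Has1, which encodes another synthase of the family, read 3.86 and 25.2 on the wild-type arrays and 6.07 and 5.53 on the SMRTmRID arrays. These are low values that overlapped between genotypes, and without a filter, where 37.6% of 18193 genes were called, the difference did not pass (-0.39 with an SE of 0.36, limma adjusted p = 0.473).

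Vcan was higher in SMRTmRID on each of its probe sets above the filter. The brightest read 364 and 412 on the wild-type arrays and 2960.0 and 2965 on the SMRTmRID arrays, a 7.64-fold ratio of means and a log2 difference of 2.89 with an SE of 0.07 (limma, adjusted p = 1.41e-09). Wild-type and mutant arrays did not overlap, and the 2 mutant arrays were nearly equal. Of 8 Vcan probe sets 4 lay above the filter, and all 4 were higher. A probe set built to detect several transcripts of the gene (its ID ends in _a_at) went from 290 ± 2.36 to 2194 ± 70.7, and another from 58.2 ± 0.548 to 606 ± 10.9. The remaining one, whose ID ending of _x_at marks probes that can match other sequences, went from 19.1 ± 2.85 to 98.4 ± 2.78 (1.71 on the log2 scale, SE 0.22). The other 4 had signals of 23.3 or less on every array and were not tested. When all 8 were averaged on the log2 scale the difference was 1.42 and still passed. The probe sets were not assigned to splice forms of versican here.

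Cd44 and Tnfaip6, the genes of the other hyaluronan binders among the members, did not follow Has2 and Vcan. Cd44 read 2869 and 2953 on the wild-type arrays and 1801 and 1862 on the SMRTmRID arrays. The wild-type arrays were 1.59-fold above the mutant arrays in the mean, without overlap, and the log2 difference was -0.66 with an SE of 0.05 (limma, adjusted p = 1.74e-06). The 2 other Cd44 probe sets above the filter were lower too, with log2 differences of -0.80 ± 0.06 and -0.84 ± 0.06 (SE). The other Cd44 probe set had signals of 1.64 to 7.96 and was not tested. Tnfaip6 read 142 and 123 on the wild-type arrays and 161 and 160 on the SMRTmRID arrays. Its mutant arrays were both above its wild-type arrays, and such separation was seen for 81.5% of all tested genes. The difference of 0.25 ± 0.13 (SE) did not pass (adjusted p = 0.121 by limma).

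All 4 tested ADAMTS members, the versican-cutting proteases, were higher in SMRTmRID. On brightest probe sets Adamts9 had the greatest difference of any member, but with probe sets averaged it was below Has2 (2.48 against 3.61). Its brightest probe set read 42.1 and 25.0 on the wild-type arrays and 815 and 806 on the SMRTmRID arrays, a log2 difference of 4.08 with an SE of 0.16 (limma, adjusted p = 4.08e-08). Both mutant arrays were far above both wild-type arrays. The wild-type mean of 33.5 lay just under the filter of 35.1, and from so dim a level the difference was 3.17 with a pseudocount of 64 and 4.60 with a pseudocount of 1. It also depended on the probe set. The second went from 22.0 ± 8.59 to 119 ± 9.19 and the third from 19.7 ± 1.69 to 87.4 ± 17.7, with log2 differences of 1.85 and 1.52, and neither had a wild-type mean above the filter.

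Adamts5, which encodes a main aggrecan-cutting protease of cartilage, read 865.5 and 948 on the wild-type arrays and 3381 and 3139 on the SMRTmRID arrays. The mutant arrays were 3.60-fold higher in the mean, and the log2 difference was 1.83 with an SE of 0.06 (limma, adjusted p = 1.61e-08). The 2 other Adamts5 probe sets above the filter had log2 differences of 1.92 and 1.43, while the remaining one stayed at 9.50 or less on every array. Adamts4, the gene of the other main aggrecan-cutting enzyme, read 81.8 and 85.7 on the wild-type arrays and 350 and 366 on the SMRTmRID arrays, a log2 difference of 1.91 with an SE of 0.11 (limma, adjusted p = 5.72e-07). Its second probe set was barely lit in wild-type, at 8.05 and 4.18, against 151 and 139 in SMRTmRID. Adamts1, whose protein was first described as an inflammation-linked member of the family, read 1114 and 1226 on the wild-type arrays and 2908 and 2907 on the SMRTmRID arrays, a log2 difference of 1.30 with an SE of 0.06 (limma, adjusted p = 7.25e-08). Its arrays did not overlap. Among the 6 members that were higher Adamts1 had the smallest difference on brightest probe sets, whereas with probe sets averaged Adamts5 was just below it (1.27 against 1.30).

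**Figure D2:**
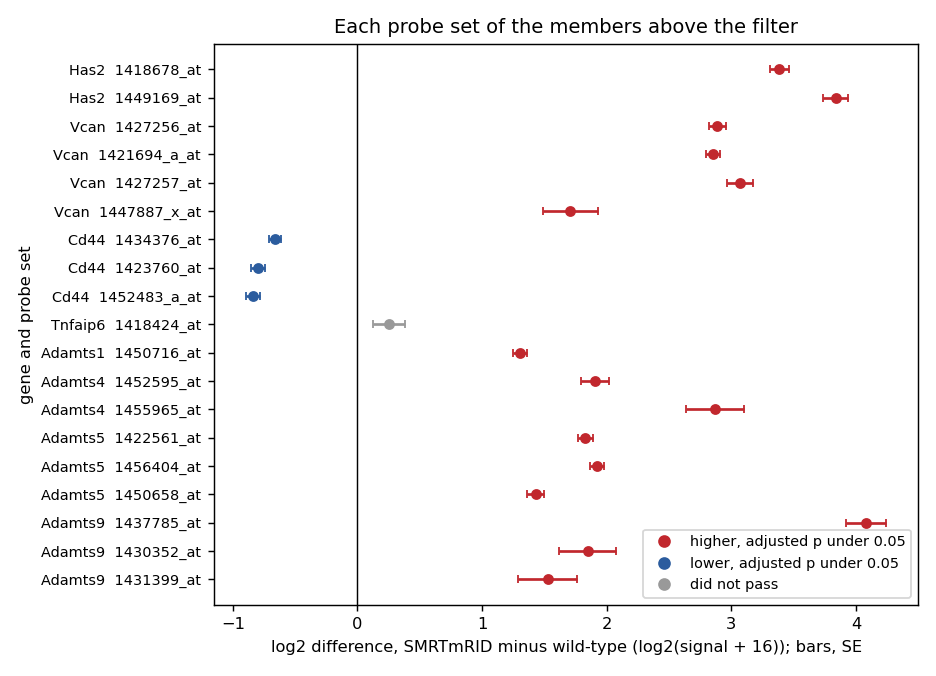
Log2 difference (SMRTmRID minus wild-type, log2(signal + 16)) with its SE for each of the 19 member probe sets above the filter, coloured by direction and call. The 15 probe sets of Has2, Vcan and the ADAMTS genes lie to the right of 0, where the filter fixed the direction of 5 of them, the 3 of Cd44 to the left, and the 1 of Tnfaip6 near 0.

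Of the members' 19 probe sets above the filter, 15 were higher, 3 lower and 1 did not pass when all 20080 such probe sets were tested, a table of which 61.1% were called, 31.7% higher and 29.4% lower. The wild-type mean of 5 of the 15 lay under the filter (1 of Vcan, 1 of Adamts4 and 3 of Adamts9), so these could only be higher. Of the 14 whose wild-type mean passed it, 10 were higher, 3 lower and 1 did not pass, and 29.3% of all such probe sets were higher. Probe sets of one gene share the RNA and the arrays and are not replicates. The 7 member probe sets below the filter had signals between 0.961 and 25.2.

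On chromosome 16 Adamts1 and Adamts5 are neighbours, with no other tested gene between them, and both were higher. The nearest tested genes on either side of the pair were not. App, the amyloid precursor gene on the Adamts1 side, was lower (log2 difference -0.67), as was N6amt1 on the Adamts5 side (-0.37). Over all 8 tested members, 14 nearest tested neighbours were no members themselves, and 3 of these were higher, 5 lower and 6 without a call, the median being -0.11. Of the nearest tested genes around Has2, Sntb1 had a difference of 0.09 that did not pass and Zhx2 was lower (-0.91). Those around Vcan, Edil3 and Xrcc4, had differences of -0.42 and 0.37 that did not pass. Between Adamts1 and App, Has2 and Zhx2, and Vcan and Edil3 lay 1 untested protein-coding gene each.

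The other genes of the pathway follow by role, and their counts stand against 30.3% higher, 35.0% lower and a median of -0.05 over all tested genes. On brightest probe sets, genes that supply sugars to hyaluronan synthases were mostly higher. Of 8 listed genes of synthesis and precursors 7 were tested, of which 5 were higher, 1 was lower and 1 had no call, and the list median was 0.61. Gfpt1 and Gfpt2 encode the enzymes that commit fructose 6-phosphate to amino sugar synthesis. Gfpt1 went from 678 ± 0.467 to 1540.2 ± 43.4 (log2 difference 1.16) and Gfpt2 from 55.9 ± 7.47 to 113 ± 3.85 (0.84). Gfpt1 rested on 1 of its 2 probe sets above the filter, and with all of its probe sets averaged its value of 0.23 failed the test (limma, adjusted p = 0.184). Ugdh, whose enzyme makes UDP-glucuronic acid, one of the polymer's precursors, went from 2006 ± 33.3 to 3249 ± 54.4 (0.69), and Ugp2, which makes UDP-glucose, from 865 ± 1.39 to 1333 ± 37.7 (0.61). Uap1, the remaining gene called higher, had a difference of 0.25, and 1 of its 3 probe sets above the filter was higher. Pgm3, of the amino sugar branch, was the 1 that was lower, at -0.52. Gnpnat1 did not pass on its brightest probe set, though 1 of its 3 probe sets above the filter was higher. Has3, the remaining synthase gene, read 12.7 and 11.4 on the wild-type arrays, against 1.23 and 2.55 on the SMRTmRID arrays, lay under the filter and has no test.

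Genes of hyaluronan breakdown were mostly lower. Of 9 listed, 5 were tested, of which 4 were lower and 1 was higher, with a median of -0.42. Cemip, which encodes a secreted hyaluronan-binding protein needed for depolymerisation by fibroblasts, read 1528 and 1576 on the wild-type arrays and 511 and 460 on the SMRTmRID arrays, a log2 difference of -1.65 with an SE of 0.07 (limma, adjusted p = 4.29e-08). Both of its probe sets above the filter were lower. Hyal2, a membrane-anchored hyaluronidase gene, went from 294 ± 23.6 to 137 ± 14.4 (-1.02), and Hexa, of the lysosomal hexosaminidase, from 1703 ± 45.1 to 1266 ± 43.5 (-0.42). Cemip2, the membrane-spanning relative of Cemip, went the other way, from 258 ± 24.4 to 549 ± 2.72 (1.05).

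Other hyaluronan binders and receptors were seldom bright enough to test. Of 17 listed 7 were tested, of which 2 were higher, 2 lower and 3 did not pass. Of the heavy chain genes of the inter-alpha-inhibitor family, some of whose chains TSG-6 transfers to hyaluronan, 2 were tested, with opposite calls. Itih2 read 246 and 259 on the wild-type arrays and 49.2 and 51.3 on the SMRTmRID arrays (-2.02), and Itih5 had 6.73 and 8.18 against 96.2 and 82.3 (2.16). Itih5 passed the filter only through the mutant cells, so it could only be higher. Layn, of the hyaluronan receptor layilin, had a difference of 0.53 and Habp4 of -0.56. The Layn call was lost without wild-type replicate 1 (adjusted p = 0.0688), without SMRTmRID replicate 2 (0.121) and without a variance trend (0.0612), all by limma. With 1 array left out, a genotype has a single array and the spread comes from the other genotype. The Habp4 call was lost with its probe sets averaged (-0.22, adjusted p = 0.136 by limma). Ptx3, the TSG-6 partner pentraxin 3, had signals of 6151 ± 111 and 6310 ± 122 and did not pass. The receptor genes Lyve1, Stab1 and Stab2 and the link protein gene Hapln1 had signals of 30.6 or less on every array.

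Among the other lecticans, the versican relatives, none was tested: Acan, Bcan and Ncan had signals of 6.75 to 46.6. The enzymes that build chondroitin sulfate, the sugar chains versican carries, went both ways. Of 24 listed lecticans and enzymes 17 were tested, of which 5 were higher, 5 lower and 7 without a call, and the list median was -0.06. Csgalnact1 and Csgalnact2, whose enzymes start a chondroitin chain, were both higher. Csgalnact1 read 209 and 200 on the wild-type arrays and 1128 and 1189 on the SMRTmRID arrays, a log2 difference of 2.41 with an SE of 0.07 (limma, adjusted p = 6.56e-09), and Csgalnact2 went from 354 ± 37.1 to 815 ± 18.2 (1.17). Chst7, a sulfotransferase gene, was lower, with 207 and 260 on the wild-type arrays and 5.22 and 24.5 on the SMRTmRID arrays (-3.08). It passed the filter only through wild-type, so it could only be lower. B3galt6, of the linker that joins the chain to the protein, was lower at -1.16. That call was lost without wild-type replicate 2 (-0.85, limma adjusted p = 0.0996), without SMRTmRID replicate 2 (-0.67, limma adjusted p = 0.0659), without a filter (0.0564) and without a variance trend (0.0683).

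The other tested ADAMTS protease genes were higher as well. Together with Adamts1, Adamts4, Adamts5 and Adamts9, 9 ADAMTS protease genes were tested, and 9 were higher and 0 lower. For 3 of them, Adamts9, Adamts15 and Adamts6, the wild-type mean lay under the filter, so they could only be higher. Of the 6 whose wild-type mean passed it, 6 were higher, with a median log2 difference of 1.55, against 28.3% of all such genes. Adamts7 and Adamts12, whose proteases cut the cartilage protein COMP, went from 89.3 ± 12.9 to 347 ± 6.74 (1.79) and from 72.0 ± 18.3 to 154 ± 23.6 (0.96). Adamts10, linked to fibrillin microfibrils, read 172 and 171 on the wild-type arrays and 365 and 402 on the SMRTmRID arrays (1.09). Adamts15, another versican-cutting member, went from 24.9 ± 1.39 to 76.3 ± 10.2 (1.17) and Adamts6 from 32.4 ± 11.6 to 82.1 ± 6.30 (1.04). Of 19 listed ADAMTS protease genes, another 6 had signals between 0.815 and 35.6 and were not tested. The ADAMTS-like genes, which lack the protease domain, were split, with Adamtsl3 at 0.59, Adamtsl4 at -0.91 and Adamtsl5 at -0.17, the last of which did not pass.

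**Figure D3:**
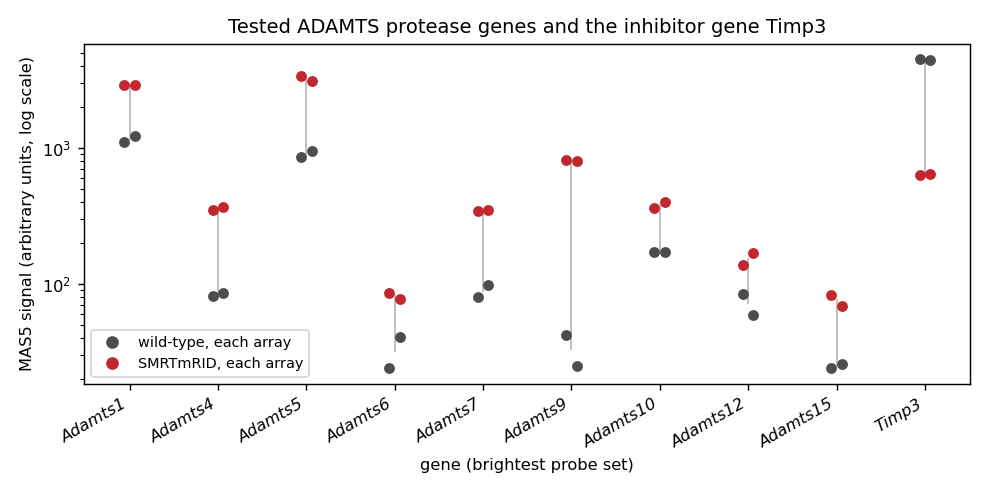
MAS5 signal (log axis) of the brightest probe set of the 9 tested ADAMTS protease genes and of Timp3, for each wild-type array (grey) and SMRTmRID array (red), with grey lines joining the means. The SMRTmRID points stand above the wild-type points for each ADAMTS gene and below them for Timp3. The filter fixed the direction of Adamts6, Adamts9 and Adamts15.

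Genes of activators, inhibitors and partners of ADAMTS enzymes were called in both directions, 4 higher and 4 lower of 8 tested. Among the lower was Comp (-0.68), the gene of the ADAMTS7 and ADAMTS12 substrate COMP. Timp3, which encodes the tissue inhibitor that blocks ADAMTS4 and ADAMTS5, read 4494 and 4468 on the wild-type arrays and 635 and 649 on the SMRTmRID arrays, or -2.77 on the log2 scale with an SE of 0.05, and all 4 of its probe sets were lower. Fbln1, of the matrix protein fibulin-1, a cofactor of ADAMTS1, went from 1215 ± 19.2 to 4502 ± 185.5 (1.88), on each of 3 probe sets. Pcsk6, a proprotein convertase gene, went from 175 ± 4.66 to 24.7 ± 10.9 (-2.26), a level under the filter in SMRTmRID, so it could only be lower. Furin, the gene of a convertase that removes the prodomain of ADAMTS enzymes, was lower as well (-0.24). Lrp1, the endocytic receptor that clears ADAMTS5, was higher by 0.56. Sdc4, of the surface proteoglycan syndecan-4, was higher by 0.77 on its brighter probe set and lower on the other, and their mean gave -0.07, which did not pass (adjusted p = 0.437 by limma).

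Procollagens and their processing enzymes, the field in which ADAMTS2 acts, were also split, with 4 higher, 4 lower and 2 not passing of 10. Bmp1, which encodes the protease for the other, carboxyl end of procollagens, went from 524 ± 12.2 to 1392 ± 15.8 (1.38). Its relative Tll1 went from 116 ± 8.67 to 15.1 ± 1.21 (-2.09), also under the filter in SMRTmRID, so it could only be lower. Col3a1 was higher, from 9117 ± 146 to 14054 ± 209 (0.62), and the cartilage collagen gene Col2a1 was lower, from 2629 ± 104 to 37.7 ± 11.9 (-5.64). Col1a1, the gene of a substrate of ADAMTS2, did not pass, with 13062 ± 504 and 13208 ± 732.

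**Figure D4:**
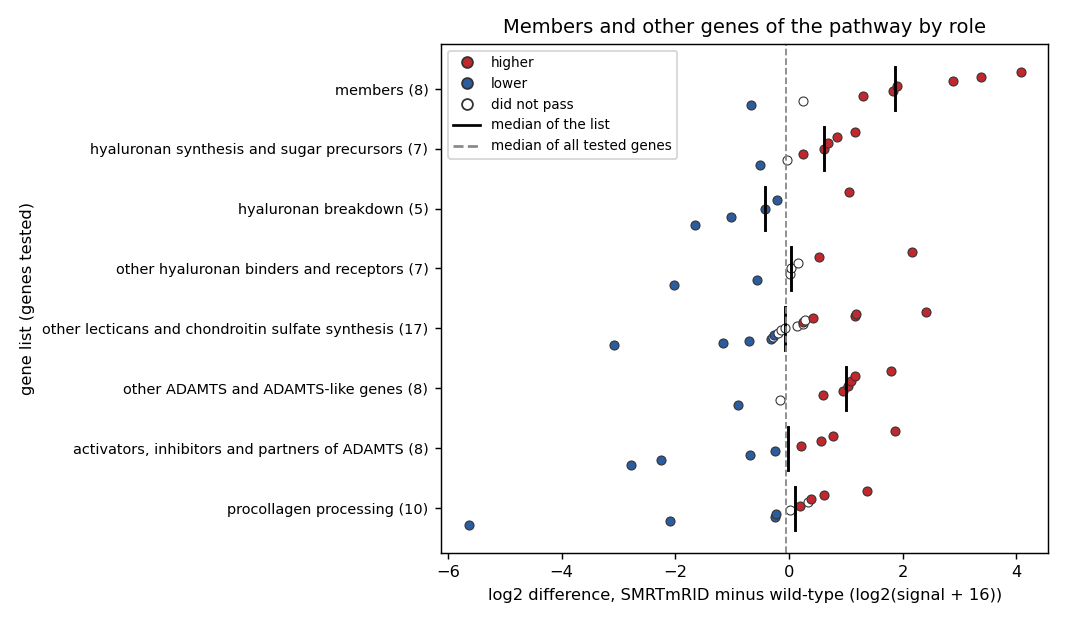
Log2 difference (SMRTmRID minus wild-type, log2(signal + 16)) of each tested gene by role, filled red where higher, blue where lower and white where it did not pass, with a black bar at the median of each list and a dashed line at the median of all tested genes (-0.05). The members (median 1.87) and the other ADAMTS and ADAMTS-like genes (1.00) sit mostly to the right, and the breakdown genes (-0.42) mostly to the left. In the first 2 of these lists the filter fixed the direction of Adamts9, Adamts6 and Adamts15. With the wild-type mean above the filter the medians were 1.83 over 7 members and 0.77 over 6 other ADAMTS and ADAMTS-like genes.

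The genes with the most similar pattern were sought by the Euclidean distance of the 4 log2 values, each gene centred on its mean. For Adamts9, the member with the greatest rise on brightest probe sets, they were Mme, the neprilysin gene, Mfap2, of a microfibril protein, and Slc16a3, of a lactate transporter, at distances of 0.14, 0.21 and 0.22. For Cd44, the 1 member that was lower, they were Edem2, Ap1m1 and Zkscan17 at distances of 0.01, 0.01 and 0.02. With 4 arrays in 2 groups, such likeness says little beyond a similar difference between the genotypes.

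Markers of the labelled cell type were measured beside these results. All 12 fibroblast markers had a probe set whose mean over the 4 arrays lay above the filter, Thy1 and Fap only through the mutant cells. The signals of the 12 summed to 79469 and 81114 on the wild-type arrays and to 98372 and 93813 on the SMRTmRID arrays. Of the 12, 7 were higher, 4 lower and 1 did not pass, against 30.3% higher and 35.0% lower of all tested genes. Thy1 and Fap could only be higher. Of the 10 markers whose wild-type mean passed the filter, 5 were higher, against 28.3% of all such genes. Their median log2 difference was 0.10, against 0.41 over the 12. The fibroblast markers that were lower were S100a4 (-0.31), Fn1 (-0.18), Vim (-0.16) and P4hb (-0.11), all bright and all small differences, and Col1a1 did not pass. When probe sets were tested singly, the P4hb probe set did not pass, and 1 of the 2 Fn1 probe sets above the filter was lower. Those higher were Col1a2 (0.19), Col3a1 (0.62), Prrx1 (0.97), Pdgfrb (1.78), Pdgfra, Fap and Thy1. The fibroblast surface markers Thy1 and Fap had signals of only 6.57 to 20.6 and 4.20 to 9.04 in wild-type, against 3172 to 3184 and 472 to 484 in SMRTmRID, and Pdgfra had 247 and 262 against 4828 and 5091. Chondrocyte markers summed to 2839 and 2940 on the wild-type arrays and to 400 and 424 on the SMRTmRID arrays, nearly all from Col2a1 in wild-type, and 4 of 6 (Acan, Col9a1, Matn1 and Col11a2) lay below the filter. Sox9, the other chondrocyte marker tested, was higher, from 189 ± 15.4 to 252 ± 1.19 (log2 difference 0.39 with an SE of 0.11, limma adjusted p = 0.0101). Of the 2 Sox9 probe sets above the filter 1 was higher when probe sets were tested singly. Col9a1, not tested, had 7.58 and 12.3 against 49.0 and 63.4. Mesothelial markers summed to 689 and 715 against 95.9 and 107, and 2 of 3 lay below the filter. The wild-type sums came nearly all from Msln, which was lower (-4.08) and passed the filter only through wild-type, so it could only be lower. Wt1, not tested, went the other way, with 1.02 and 8.69 against 51.4 and 77.4, and Upk3b overlapped between genotypes. For macrophages, 3 of 6 markers lay below the filter and sums were 204 to 370 and 352 to 355, with Csf1r giving 266 of the highest. Adgre1 did not pass, nor did Csf1r on its brightest probe set, though 2 of the 3 Csf1r probe sets above the filter were higher. Lyz2 was higher, with 27.4 and 15.6 on the wild-type arrays and 105 and 95.3 on the SMRTmRID arrays (1.65 with an SE of 0.25, limma adjusted p = 0.000265). It passed the filter only through the mutant cells, so it could only be higher. For epithelial cells 3 of 4 lay below the filter, with sums of 248 to 288 and 175 to 209. Epcam, the 1 tested, was lower (-0.37), and Cdh1 read 55.9 and 42.3 against 2.41 and 1.61. Krt18 had means of 21.5 and 24.7, and Krt8 overlapped between genotypes. All 4 endothelial markers and all 3 measured adipocyte markers lay below the filter, with sums of 64.2 to 77.1 and 12.4 to 28.4, and smooth muscle markers summed to 16879 to 17275 and 14991 to 15840 with 1 of 4 below it. Among the latter Cnn1 was higher (1.45), Tagln lower (-0.52) and Acta2 without a call. The part of these differences in the members' results was not tested. As a measure of RNA integrity, beta-actin controls near the 3′ end read 1.19 to 1.20 times those near the 5′ end on the 4 arrays.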

How the data were processed

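The deposited values are linear MAS5 signals, 1 intensity for each probe set on each array, as the submitters' processing notes name them. Version, detection calls and filters are not given in the sources used here, so low signals are not called absent. Trimmed of 2% at each end, the mean was 200.0 on each array, so arrays were already scaled alike. After leaving out 64 control probe sets, 34945 of 45037 had 1 symbol in GEO's platform annotation, 932 several and 9160 none here. Symbols were updated by gene ID through RefSeq of GRCm38.p6 (34741 matched), which also gave the promoters.

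Values were taken as log2(signal + 16). A gene was tested on its brightest probe set when that averaged above 35.1, the median of all values, with limma 3.58.1 in R 4.3.3 (lmFit, eBayes with trend, no covariates), two-sided and adjusted over 11057 genes. The code was tested on simulated data. Figures used matplotlib 3.10.9. Members, role lists and markers were chosen with earlier results of these data known. Named were all members, up to 4 called genes of each role list with the greatest change, and the 3 genes closest in pattern to the members with the greatest rise and fall. Other list genes and the neighbours were named after their values were seen. Across genes, the deviations of arrays with the same number correlated at 0.012, which gave no sign of a pairing by number. The labels do not say whether arrays with the same number were processed together. Alternatives were pseudocounts of 1 and 64, no filter, a filter at the 75th percentile, quantile normalization, median centring, no variance trend, averaged probe sets, probe sets tested singly, a block for the replicate number, and leaving out each array.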

Additional observations from a re-analysis of the deposited data

How the results depend on the processing

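Under the 14 alternatives, 6 members were called higher and 1 lower each time, and all 111 member values kept their direction and their side of the threshold. Tnfaip6 had 13 such values, since it was too dim for the strictest filter, and its adjusted p lay between 0.0725 and 0.632 (limma). The sizes moved more: Has2 lay between 3.05 and 3.61, Vcan between 1.42 and 2.97, Adamts9 between 2.48 and 4.60 and Cd44 between -0.83 and -0.55, with the lowest Vcan and Adamts9 values from averaging probe sets. With the replicate number as a block, 7420 of 11057 genes were called against 7213 without it, and the block changed no call of a member. Leaving out 1 array in turn gave 6566 to 6605 calls. Each of these fits has 1 array left in a genotype and takes its spread from the other genotype, so that the lone array is assumed to vary like those. For the 28 named pathway genes, 368 of 378 values kept direction and call, 9 lost the call and 1 reversed, the Sdc4 difference of -0.066 with its probe sets averaged. Under the alternatives in which each was tested, 23 genes kept their call. Some of these 23 were too dim for the strictest filter. Adamts6 and Itih5 had values under only 12 alternatives, and none with probe sets averaged. With 2 technical replicates per genotype the spread between cell lines was not analysed here, and low signals are limited by the array's background.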
